A study of Mus musculus with 8 samples.

Results

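Paraoxonases are calcium-dependent enzymes that hydrolyse lactones, and the mouse genome carries a cluster of 3 of them, Pon1, Pon2 and Pon3, next to each other on chromosome 6. All 3 were measured here, among 19938 genes with a probe set of a single gene symbol, and each had exactly 1 probe set. The family was selected on the measured difference of Pon1, already known from these arrays to be low in knockout cells, and its other members by their symbols, so the differences of the family between the groups are given below as descriptions without a test. RNA was measured on single-colour arrays in Epcam(+) epithelial cells of E18.5 mouse embryos, taken from the lungs near the end of gestation. The 4 control arrays carry the label Control with no further genotype, and the 4 knockout arrays the label Mst1/2 CKO. The latter lack Mst1 and Mst2, the Hippo kinases, through ShhCre, a Cre recombinase active where Shh is expressed, which includes the epithelial progenitors of the lung. The labels call every array a biological replicate without naming the animals or any pooling, so the errors measure the spread between these samples. Precision is limited by having 4 arrays in each group.

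The members differ in where they act. Pon1 is made mainly in liver, is secreted and circulates on high-density lipoprotein (HDL), where it slows lipid oxidation and also hydrolyses the toxic oxon forms of organophosphate insecticides. Pon3 is found on HDL and inside cells and prefers bulky lactones, among them lactone drugs. Pon2 stays inside cells, is expressed in most tissues including airway epithelium, and degrades the acyl-homoserine lactones with which Pseudomonas bacteria signal to each other. The Hippo kinases restrain the transcriptional coactivators Yap and Taz, and the arrays ask which transcripts of the epithelium change when both kinases are lost.

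All values are log2 expression, so a difference of 1 is a doubling. The array medians lay between 7.21 and 7.30 and the scaling had been done before deposit, so a change in total RNA per cell would not show. Stk4, which encodes Mst1, fell from 9.66 ± 0.12 in control arrays (SD, n = 4) to 9.36 ± 0.10 in the knockout (difference -0.30, SE 0.076, limma adjusted p = 0.0188). Without knockout replicate 3 it no longer passed (-0.28, adjusted p = 0.0592). Which exons its probe set covers is not known, so it may not check the deletion, and the gene of Mst2 was not analysed here. Epcam, on which the cells were selected, was at 10.06 ± 0.15 in control and 10.07 ± 0.17 in knockout arrays. Over 10 general epithelial genes the mean per array lay between 11.09 and 11.30 in control and between 11.18 and 11.33 in knockout arrays. These means cover changes in both directions: 3 of the 10 genes rose, 1 fell and 6 did not pass (adjusted p below 0.05). Those that rose were Krt7 (0.69, SE 0.091), Krt19 (0.62, SE 0.086) and Krt8 (0.27, SE 0.079), and Elf3 fell (-0.72, SE 0.094).

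The promoter windows of the 3 genes are printed first because the members differ in these sequences as well as in their values. Each runs from 250 bases before to 50 bases after the transcription start in RefSeq (assembly GRCm38.p6), 5′ to 3′ on the minus strand on which all 3 genes lie: chr6:5193897-5194196 for Pon1, chr6:5256184-5256483 for Pon3 and chr6:5298291-5298590 for Pon2. Capitals mark matches to any of the motifs named in the paragraph that follows.
Pon1: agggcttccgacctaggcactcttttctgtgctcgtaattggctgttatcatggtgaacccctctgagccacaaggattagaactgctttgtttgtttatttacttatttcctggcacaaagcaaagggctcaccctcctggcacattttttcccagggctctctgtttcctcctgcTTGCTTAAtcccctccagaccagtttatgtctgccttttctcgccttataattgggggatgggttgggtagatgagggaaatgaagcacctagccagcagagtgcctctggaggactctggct
Pon3: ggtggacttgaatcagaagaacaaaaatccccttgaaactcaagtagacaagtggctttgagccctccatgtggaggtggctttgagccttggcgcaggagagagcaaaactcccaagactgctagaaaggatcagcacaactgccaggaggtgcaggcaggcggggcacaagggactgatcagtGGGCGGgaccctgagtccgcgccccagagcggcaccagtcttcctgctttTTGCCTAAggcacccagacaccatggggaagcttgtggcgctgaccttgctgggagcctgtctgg
Pon2: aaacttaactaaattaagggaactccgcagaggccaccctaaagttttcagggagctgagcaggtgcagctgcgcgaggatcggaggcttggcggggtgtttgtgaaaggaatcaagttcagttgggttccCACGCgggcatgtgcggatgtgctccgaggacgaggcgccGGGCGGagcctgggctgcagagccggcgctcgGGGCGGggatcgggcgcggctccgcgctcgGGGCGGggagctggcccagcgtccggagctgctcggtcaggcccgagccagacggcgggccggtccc

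These windows differ in base composition. The Pon2 window has 67.7% G and C and 31 CpG dinucleotides, that of Pon3 57.7% and 7, and that of Pon1 49.3% and 3, against medians of 52.7% and 7 over 32851 RefSeq promoters of the same length. On either strand the motif TTGCNNAA, bound by C/EBP factors, matched once in Pon1 (TTGCTTAA, starting 73 bases before the transcription start) and once in Pon3 (TTGCCTAA, 15 bases before it), and 0 times in Pon2. Of all promoters 10.8% hold this motif. GGGCGG, the core bound by Sp1, matched 3 times in Pon2, 1 time in Pon3 and 0 times in Pon1, and 35.7% of promoters hold it. GCGTG, the core bound by the aryl hydrocarbon receptor, matched 1 time in Pon2 only, against 32.4% of promoters. No window held GGAATG, the core of the Yap partner TEAD (14.7% of promoters), TCAAGTG for Nkx2-1 (3.06%), TGTTTAC for Fox factors (3.65%) or TATAAA, the TATA box (13.6%). No match overlapped another. A match is a description of the letters in these windows, and no factor's binding was measured.

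Pon1 had by far the widest span of the family. The control arrays, replicates 1 to 4, read 10.86, 11.54, 10.83 and 10.94, and the knockout arrays, in the same numbering, read 8.46, 5.93, 5.65 and 5.56. No knockout value reached a control value, and the groups were separated by 2.37 log2 units. Knockout replicate 1 stood well above the other knockout arrays. The group means were 11.04 ± 0.34 (SD, n = 4) and 6.40 ± 1.38, a difference of -4.64 (SE 0.54), or 25.0-fold. Set against the control mean, the Pon1 signal was 16.7% in knockout replicate 1, 2.89% in replicate 2, 2.37% in replicate 3 and 2.23% in replicate 4. The spread of the knockout group came almost entirely from replicate 1: without it the mean was 5.71 ± 0.20 (n = 3) and the difference -5.33 (SE 0.17), or 40.3-fold. Whether the readings of replicates 2 to 4 were at the background of this probe set is not known, so these sizes may be lower bounds. In RNA from a cell population, fewer cells that express a gene and less RNA of it per cell cannot be told apart.

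Pon3 was lower in the knockout arrays as well, by a smaller amount. Control replicates 1 to 4 read 11.26, 11.43, 11.17 and 11.19, and knockout replicates 1 to 4 read 10.54, 10.49, 10.09 and 10.24. The groups did not overlap and were 0.63 apart, more than the whole range of the control values (0.26). From 11.26 ± 0.12 (SD, n = 4) the mean went to 10.34 ± 0.21, a difference of -0.92 (SE 0.10), or 1.89-fold. Here the knockout arrays kept between 44.4% and 60.6% of the control mean, and replicate 1 lay beside replicate 2. Without knockout replicate 1 the difference was -0.99 (SE 0.10).

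Pon2, the intracellular member, had the smallest difference of the family. Its control values were 9.81, 9.92, 9.80 and 9.74 and its knockout values 9.70, 9.68, 9.61 and 9.55, each for replicates 1 to 4. Every knockout value was below every control value, but the gap was only 0.041, smaller than the range within either group (0.18 and 0.15). The means were 9.82 ± 0.077 (SD, n = 4) and 9.64 ± 0.067, a difference of -0.18 (SE 0.062), or 1.13-fold. Without knockout replicate 1 it was -0.20 (SE 0.069).

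**Figure D1:**
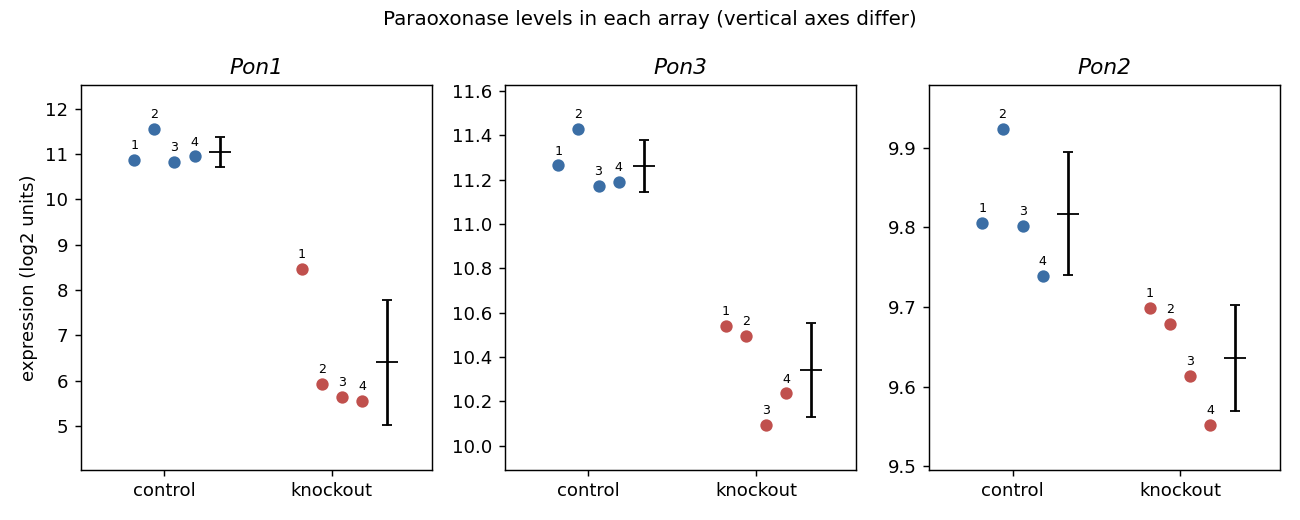
Expression of Pon1, Pon3 and Pon2 (log2 units, vertical axes differ between panels) in each of the 4 control arrays (blue) and 4 knockout arrays (red), numbered by replicate, with the group mean ± SD in black. In Pon1 knockout replicate 1 (8.46) lies apart from both the control values and the remaining knockout values, while in Pon3 and Pon2 it lies beside knockout replicate 2.

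The members were thus ordered Pon1, Pon3, Pon2 by the size of the difference, which is also the order in which they lie on the chromosome. Of all 19938 genes Pon1 had the most negative difference, Pon3 ranked 297 and Pon2 3060. In all 3 the groups did not overlap, with the knockout lower, which held for 11.9% of all genes. Nothing is read from this count, since the contrast was known when the family was chosen. In limma's test over all genes (adjusted p below 0.05) 18.8% of genes passed, 10.2% with a lower and 8.6% with a higher level.

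The members also followed the same order of arrays at the top of each group. In all 3 control replicate 2 was the highest control array and knockout replicate 1 the highest knockout array. Knockout replicate 1 lay only just above replicate 2 in Pon3 (10.54 against 10.49) and Pon2 (9.70 against 9.68). This order, with control replicate 2 and knockout replicate 1 highest, held for 8.18% of all genes and for 23.9% of the 2031 genes that fell. The mean over markers of alveolar type 2 cells, the surfactant-producing cells of the distal lung, had this order too. Many single markers did not. Among control arrays Sftpb, Muc1 and Chil1 were highest in replicate 1, and Slc34a2, Fabp5, Lyz1, Lyz2 and Sftpc in replicate 3. Among knockout arrays Sftpd and Sftpc were highest in replicate 3. The remaining type 2 markers had the order of the paraoxonases. The mean of 18 measured type 2 markers was 12.32, 12.43, 12.32 and 12.21 in the control arrays, by replicate number, and 11.41, 10.95, 11.02 and 10.57 in the knockout arrays, and 17 of the 18 fell. Over 15 markers of alveolar type 1 cells the array means were between 10.87 and 11.05 in control and between 11.48 and 11.66 in knockout arrays, with 13 risen and 0 fallen. Club and secretory markers (12 measured) had means of 9.56 to 9.61 against 8.77 to 9.12, with 7 fallen and 0 risen. Ciliated markers (14 measured) had means of 7.87 to 8.20 against 7.57 to 8.03, with 5 fallen and 1 risen.

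Markers of cells outside the lung epithelium were read beside these. Means ran from 8.52 to 8.97 in control and from 8.82 to 9.30 in knockout arrays over 14 mesenchymal markers (5 rose, 0 fell), and from 9.11 to 9.44 and 9.50 to 9.62 over 10 endothelial markers (5 rose, 0 fell). For 9 leukocyte markers the ranges were 9.21 to 9.97 and 9.49 to 9.72 (1 rose, 1 fell), and for 3 erythroid markers 6.74 to 6.89 and 6.75 to 7.11 (0 rose, 0 fell). The leukocyte marker that rose was Itgam (0.56, SE 0.17). The one that fell was Lyz2 (-0.93, SE 0.086), which is also among the 18 type 2 markers, so the leukocyte mean is not one of leukocytes alone. Because Pon1 is chiefly a liver gene, 14 hepatocyte markers were read too, with 3 fallen, 0 risen and 11 that did not pass. Their means lay between 6.52 and 6.56 in control and between 6.23 and 6.34 in knockout arrays. The median difference was only -0.08, and the largest fall was that of Trf (-1.54, SE 0.13), which read 12.26 on average in control arrays. The arrays give no true zero, so no marker can be called absent. The part of these cell types in the values of the paraoxonases was not tested.

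How far knockout replicate 1 had moved can be put on a common scale, as the distance of its value from the control mean in percent of the distance of the mean of knockout replicates 2 to 4, both in log2 units. That position was 48.4% for Pon1, 73.0% for Pon3 and 58.7% for Pon2. Taken for knockout replicates 2 to 4 singly, it had an SD of 3.66 points in Pon1, 20.6 in Pon3 and 31.5 in Pon2. Across the 265 genes that fell by at least 1 on the log2 scale the median position was 76.8%, with quartiles of 69.5% and 82.7%. Pon3 and Pon2 did not fall by that much and are not in this set. Of those 265 genes 6 had a position below that of Pon1. If Pon1 in knockout replicates 2 to 4 was at the background of its probe set, which is not known, its position is an upper bound. For Pon2 the whole distance is so small that its position is poorly determined: it was 75.7% after quantile normalization.

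The genes nearest to Pon1 in profile were sought over the 8 arrays, each gene's values taken relative to its control mean and the distance being the root mean square of the differences. The nearest 5 were Retnla (0.56 log2 units), Gdpd2 (0.88), C6 (1.13), Hc (1.15) and Chil1 (1.30). Retnla encodes a secreted resistin-like protein, Gdpd2 a glycerophosphodiester phosphodiesterase, C6 and Hc complement components, and Chil1 a secreted chitinase-like protein. Hc and Chil1 are also among the 18 type 2 markers. The distances are large because no other gene differed as much: Retnla, the next, differed by -3.98 (SE 0.67). When each profile was divided by its own difference between the groups, which leaves only its shape, the nearest among genes called with a difference of at least 1 were Gdpd2, C6, Chil1, Atp6v1c2 and Car8, at distances of 0.060 to 0.075 of that difference. Atp6v1c2 encodes a subunit of the proton pump of intracellular membranes and differed by -2.35 (SE 0.24), and Car8, a protein related to carbonic anhydrases, differed by -2.61 (SE 0.21).

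**Figure D2:**
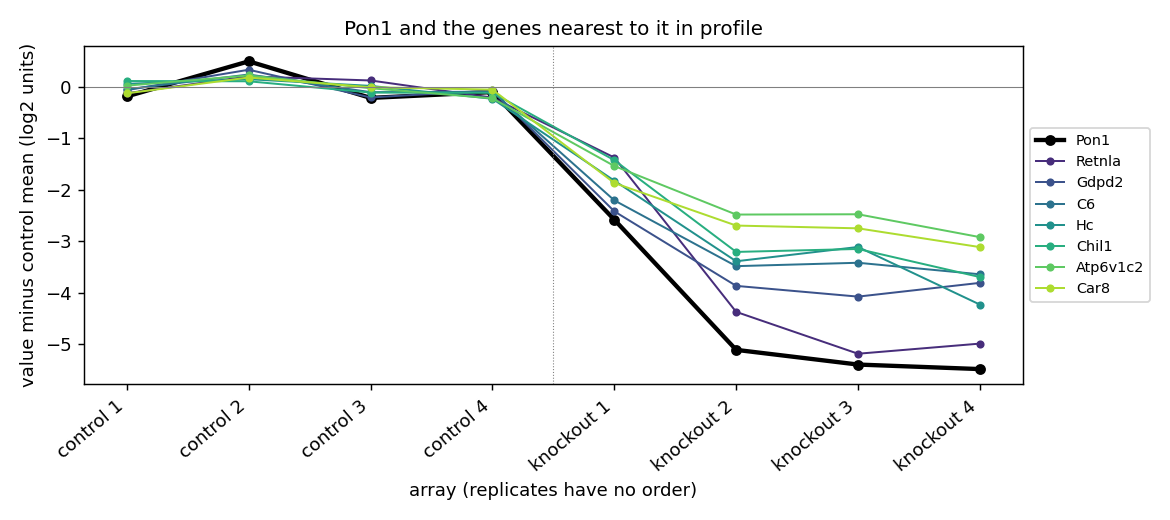
Pon1 (black) and the 7 genes nearest to it by either measure, as log2 value minus the gene's own control mean in each of the 8 arrays; the lines only join the points of a gene, since replicates have no order. Every gene shown was lower in all knockout arrays than in any control array, and least so in knockout replicate 1, where Retnla read 10.93 against 7.12 to 7.93 in the other knockout arrays.

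Pon3 had other near neighbours in profile. By the distance in log2 units these were Dhrs3, a reductase of retinaldehyde (0.063), Adam22, a disintegrin protein without protease activity (0.082), Cmtm8, a membrane protein (0.084), Pex11a, a factor of peroxisome division (0.087), and Slc31a1, the copper importer (0.087). Their differences lay close to that of Pon3, from -0.94 (SE 0.11) in Pex11a to -0.87 (SE 0.098) in Slc31a1. By shape the nearest were the potassium channel gene Kcnj13, the tetraspanin Tspan1, the mitochondrial acetyl-CoA synthetase Acss1, the glutaminyl cyclase Qpct and, in the opposite direction, the actin crosslinker Flnc (1.00, SE 0.10), at distances of 0.064 to 0.095. The neighbours of Pon1 and those of Pon3 share no gene. For Pon2 no like genes were named, because its range over the 8 arrays was 0.37 and the rule asked for at least 1.

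The stretch of chromosome 6 around the cluster held genes that fell and genes that rose. The 6 genes on each side that the RefSeq gene table lists as protein-coding were taken, of which 11 were measured. The table so lists Gmfg-ps, whose symbol is that of a pseudogene and which was not analysed here. Of the 11 measured genes 4 fell, 2 rose and 5 did not pass, against 10.2% of all genes that fell and 8.6% that rose. The share called was 54.5%, against 18.8% of all genes. In chromosomal order every measured gene from Peg10 to Pdk4, with the paraoxonases between them, was lower in the knockout arrays. Pdk4 itself did not pass. Whether the genes of this stretch changed together was not tested. Their differences lay between -0.53 and 0.49, so none came near that of Pon1 (-4.64) or reached that of Pon3 (-0.92). Pon2 (-0.18) did not stand out in this way. Peg10 (-0.53), Asb4 (-0.43), Pdk4 (-0.43), Ppp1r9a (-0.33) and Casd1 (-0.31) were lower by more than Pon2. The other measured flanking genes were lower by less or were higher. Ppp1r9a, the gene next to Pon1, encodes the actin-binding protein neurabin and fell from 9.46 ± 0.028 (SD, n = 4) to 9.13 ± 0.059 (-0.33, SE 0.054, adjusted p = 0.00153). Asb4, the gene next to Pon2, encodes a substrate adaptor of ubiquitin ligases and fell from 6.37 ± 0.15 to 5.94 ± 0.15 (-0.43, SE 0.094, adjusted p = 0.00877). Peg10, an imprinted gene derived from a retrotransposon, fell by 0.53 (SE 0.11, adjusted p = 0.00747).

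Other neighbours differed in either direction. Casd1, which encodes an enzyme that acetylates sialic acids, fell by 0.31 (SE 0.084, adjusted p = 0.0255), but did not pass without control replicate 1 (adjusted p = 0.0620), control replicate 2 (0.0683) or knockout replicate 3 (0.0628). Sem1, a proteasome subunit, rose by 0.48 (SE 0.099, adjusted p = 0.00634). Col1a2, a chain of type I collagen and one of the mesenchymal markers above, rose by 0.49 (SE 0.14, adjusted p = 0.0369). Its call ended without any 1 of control replicates 1 to 3 or knockout replicates 3 and 4, where the adjusted p lay between 0.0705 and 0.111. The imprinted Sgce, which encodes epsilon-sarcoglycan, differed by 0.23 (SE 0.13, adjusted p = 0.270) and passed only without knockout replicate 4 (0.34, adjusted p = 0.0430). Pdk4, a kinase that restrains pyruvate oxidation, differed by -0.43 (SE 0.15, adjusted p = 0.0746). It passed without control replicate 2 (-0.55, adjusted p = 0.0176) and with the replicate number as a block (adjusted p = 0.0477). The motor subunit gene Dync1i1 (-0.02, SE 0.051), the mitochondrial carrier gene Slc25a13 (0.03, SE 0.077) and the homeobox gene Dlx6 (-0.04, SE 0.10) did not pass.

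**Figure D3:**
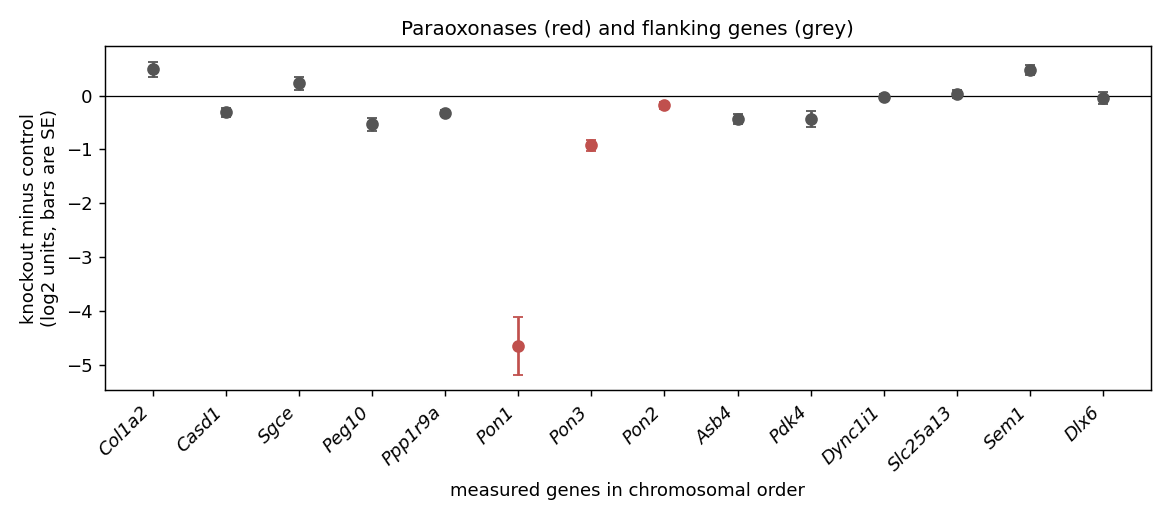
Difference between knockout and control arrays (log2 units, bars are SE, 4 arrays per group) for the 3 paraoxonases (red) and the 11 measured flanking genes (grey), in their order on chromosome 6 without distances. Pon1 is at -4.64, Pon3 at -0.92 and Pon2 at -0.18, while the flanking genes lie between -0.53 and 0.49.

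Genes of the particle that carries Pon1 and Pon3 were examined as a list of HDL and lipoprotein genes. Among 25 measured genes 6 fell, 0 rose and 19 missed the threshold, with a median difference of -0.06 against -0.02 over all genes. That is 24.0% of the list called, all lower, against 18.8% of all genes called in either direction and 10.2% called lower. Apoc1, an apolipoprotein that inhibits lipoprotein uptake, fell from 9.32 ± 0.39 (SD, n = 4) to 8.10 ± 0.14 (-1.22, SE 0.17, adjusted p = 4.56e-04). Vldlr, a receptor for lipoproteins rich in triglyceride, fell by 0.79 (SE 0.12) and the serum amyloid A gene Saa4 by 0.76 (SE 0.13). Abca1, which exports cholesterol to nascent HDL, fell by 0.37 (SE 0.056). The other members that fell were Saa3 (-0.37, SE 0.072) and Scarb1, the HDL receptor (-0.36, SE 0.077), which the naming rule did not cover. Probe sets of the similar Saa genes may share signal, so their values are uncertain. Named for their roles after their values were seen, Apoa1, the main protein of HDL, differed by -0.11 (SE 0.095, adjusted p = 0.523), and Lcat, which esterifies the cholesterol of HDL, by -0.09 (SE 0.089, adjusted p = 0.571). Apoe differed by 0.11 (SE 0.13, adjusted p = 0.660) and passed as the 1 risen member only without control replicate 2 (0.25, adjusted p = 0.0215).

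Other esterases and lactonases formed the next list. Of 26 measured genes 3 fell, 1 rose and 22 did not pass, which is 15.4% called against 18.8% of all genes, and the median difference was -0.04. Ces1d, a carboxylesterase of lung and fat, fell from 11.89 ± 0.088 (SD, n = 4) to 10.99 ± 0.28 (-0.90, SE 0.12, adjusted p = 4.05e-04), and Ces1e fell by 0.43 (SE 0.098). The Ces1 genes are close copies of each other, so these values are uncertain. Bphl, a hydrolase that activates valacyclovir, fell by 0.40 (SE 0.086, adjusted p = 0.00819). Bche, the butyrylcholinesterase that binds organophosphates in plasma, rose by 0.35 (SE 0.085, adjusted p = 0.0152). Without knockout replicate 4, 2 genes rose, the second being the cholesterol ester hydrolase gene Nceh1 (0.35, adjusted p = 0.0180).

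Antioxidant defence genes, whose products like Pon1 and Pon2 limit oxidative damage, held changes in both directions. Among 28 measured genes 7 fell, 1 rose and 20 missed the threshold, with a median of -0.04. The share called was 28.6%, against 18.8% of all genes. Gclc, the catalytic subunit that starts glutathione synthesis, fell from 11.35 ± 0.075 (SD, n = 4) to 10.09 ± 0.16 (-1.25, SE 0.083, adjusted p = 9.71e-06). Cat, catalase, fell by 0.88 (SE 0.072), and Nfe2l2, the transcription factor Nrf2 that drives many genes of this kind, fell by 0.50 (SE 0.092). Slc7a11, which imports cystine for glutathione synthesis, rose from 6.21 ± 0.13 to 7.37 ± 0.22 (1.16, SE 0.11, adjusted p = 4.34e-05). Outside the naming rule, the fallen members were the superoxide dismutase genes Sod3 (-0.42, SE 0.086) and Sod2 (-0.35, SE 0.071), the mitochondrial thioredoxin reductase gene Txnrd2 (-0.35, SE 0.082) and the glutathione peroxidase gene Gpx1 (-0.28, SE 0.076, adjusted p = 0.0249). The call of Gpx1 ended without any 1 of control replicates 1 to 3 or knockout replicate 3, where its adjusted p was 0.0553 to 0.0664.

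Transcription factors reported to act on paraoxonase genes formed the last list. Among 13 measured genes 4 fell, 0 rose and 9 missed the threshold, and the median was -0.10. The share called was 30.8%, all lower, against 18.8% of all genes called in either direction and 10.2% called lower. Srebf1, a factor of fatty acid synthesis, fell by 0.71 (SE 0.090, adjusted p = 2.88e-04), Ppara, the receptor that drives fatty acid oxidation, by 0.76 (SE 0.11, adjusted p = 5.59e-04) and Nr1h3, the oxysterol receptor LXR alpha, by 0.34 (SE 0.068, adjusted p = 0.00480). Srebf2, a factor of sterol synthesis, fell by 0.23 (SE 0.063, adjusted p = 0.0242). Its call ended with the replicate block (adjusted p = 0.0617), after quantile normalization (0.0512) and without control replicate 1 or 2 or knockout replicate 1, 2 or 3 (0.0581 to 0.0739). Named after their values were seen, Ahr, the aryl hydrocarbon receptor, differed by 0.19 (SE 0.075, adjusted p = 0.122), Pparg by -0.21 (SE 0.10, adjusted p = 0.205) and Sp1 by -0.06 (SE 0.052, adjusted p = 0.545). Without control replicate 4 Ahr passed as the 1 risen member (0.26, adjusted p = 0.0190).

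**Figure D4:**
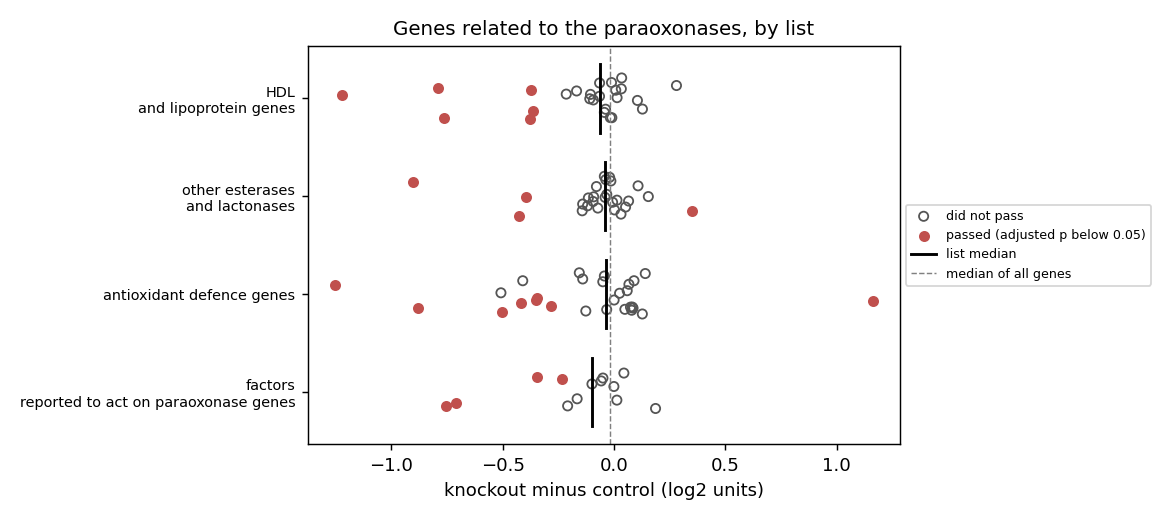
Difference between knockout and control arrays (log2 units) for each measured gene of the 4 lists of genes related to the paraoxonases, filled where limma's adjusted p was below 0.05, with the list median in black and the median of all genes as a dashed line. Single members lie as low as -1.25 (Gclc), while the list medians lie between -0.10 and -0.04.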

How the data were processed

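The authors deposited 1 table of log2 values, with 35556 probe sets measured in 8 arrays. The log2 scale was read from the values, and the normalization method was not given in the sources used here. Symbols came from the platform's annotation in GEO, and 21789 probe sets have 1 symbol. For a gene with several probe sets the highest mean over the 8 arrays was used, which left 19938 genes, of which 19856 matched RefSeq (GRCm38.p6) by gene number with 0 symbols changed. The groups were set against each other in limma 3.58.1 (lmFit, then eBayes, under R 4.3.3), two-sided, with Benjamini-Hochberg adjustment over all genes and a threshold of 0.05. SE is limma's moderated standard error. The fit was tested on simulated data.

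The paraoxonases and the gene lists were chosen with earlier results of these data known, so no test of the paraoxonases is reported, although they are part of the fit over all genes. Of each of 4 lists, the 4 members with the smallest p among those that passed were named, with Stk4, all flanking genes and the 5 genes nearest in profile by each of the measures. Alternatives were a replicate block, centring on the median, quantile normalization, a trended robust variance, genes above the median level, all probe sets, and leaving out each array. Motifs were searched on both strands of RefSeq promoters. Each paraoxonase had 1 probe set, so another could not be tried.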

Additional observations from a re-analysis of the deposited data

Results flagged for a closer look

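Within each group of 4 arrays, a value was marked when its gap to the nearest other array exceeded Dixon's 95% critical share of the group's range. Chance marks about 5% of groups, and over all genes the knockout group had an array marked in 7.16%. Of the 96 groups examined 8 were marked, and nothing is read from this count. Pon1 was marked in both groups, by control replicate 2 at 11.54 (other control arrays 10.83 to 10.94) and by knockout replicate 1 at 8.46 (other knockout arrays 5.56 to 5.93). Gdpd2 and C6 were marked by knockout replicate 1 too, which their choice for a profile like that of Pon1 builds in, at 8.501 (others 6.84 to 7.11) and 7.63 (others 6.19 to 6.41). C6 was also marked by control replicate 2 at 10.07 (others 9.73 to 9.79), as was Stk4 at 9.84 (others 9.59 to 9.62). Of the flanking genes, Col1a2 was marked by control replicate 4 at 9.01 (others 8.63 to 8.66) and Peg10 by control replicate 1 at 9.54 (others 9.06 to 9.11). Over all genes knockout replicate 1 was set apart in 0.707%, and among the 265 genes that fell by at least 1 it was set apart on the high side in 11 (4.15%).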

How the results depend on the processing

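After centring on the median and after quantile normalization, the groups still did not overlap in any of the 3 paraoxonases, with the knockout lower. The other settings and the 8 leave-outs use the same values. They could not have brought an overlap or another sign, so nothing is read from them on this point. Leaving out single arrays gave -5.33 to -4.36 for Pon1, -0.99 to -0.84 for Pon3 and -0.21 to -0.15 for Pon2. Between 1240 and 1820 genes were then called higher and 1526 to 2158 lower. The lists had 0 to 1 HDL and lipoprotein genes risen and 6 fallen, 1 to 2 other esterases risen and 3 to 4 fallen, 1 antioxidant gene risen and 6 to 8 fallen, 0 to 1 factors risen and 3 to 4 fallen, and 1 to 2 flanking genes risen and 3 to 4 fallen. Among genes above the median level, where fewer genes are tested, 0 other esterases and 0 antioxidant genes rose and 2 factors fell. The replicate numbers did not pair the arrays: deviations of same-numbered arrays correlated at -0.082 to 0.095 over genes, and of the 8 arrays only knockout replicate 2 correlated best with the array of its own number in the other group. With the number as a block, 1595 genes were called higher and 1899 lower, and the paraoxonase differences stayed at -4.64, -0.92 and -0.18. Signal near background may limit the size of the Pon1 difference.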

Other observations

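Of 14 genes listed as hepatocyte markers, 3 fell, 0 rose and 11 missed the threshold, with a median difference of -0.08. The share called was 21.4%, all lower, against 18.8% of all genes called in either direction and 10.2% called lower. Trf, which encodes the iron carrier transferrin, went from 12.26 ± 0.24 (SD, n = 4) to 10.72 ± 0.21 (difference -1.54, SE 0.13, limma adjusted p = 2.61e-05). Alb, which encodes albumin, went from 7.16 ± 0.076 to 6.36 ± 0.15 (-0.79, SE 0.080, adjusted p = 7.15e-05), and Fgg, a fibrinogen chain, from 6.13 ± 0.25 to 5.30 ± 0.077 (-0.83, SE 0.11, adjusted p = 3.70e-04). Among those that did not pass were Hpx, which encodes hemopexin (0.19, SE 0.074, adjusted p = 0.0995), Fgb, another fibrinogen chain (0.03, SE 0.080, adjusted p = 0.855), Ahsg, which encodes fetuin A (-0.13, SE 0.060, adjusted p = 0.161), and Serpinc1, which encodes antithrombin (-0.20, SE 0.085, adjusted p = 0.148). All 7 were picked with their values in view.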
